A study of Mus musculus with 12 samples.

Results

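The dual specificity phosphatases that limit MAP kinases were examined in neutrophils of the injured mouse liver. Their 8 genes, Dusp1, Dusp2, Dusp4, Dusp5, Dusp6, Dusp7, Dusp10 and Dusp16, were chosen by name and found in the count table by Ensembl identifier, 8 of 48709 genes listed. Neutrophils had been sorted from C57BL/6N male mice, 8 to 10 weeks old and with no engineered allele named, in 3 groups. The control libraries came from the spleen of untreated mice (n = 3), and the others from the liver 24 hours (n = 4) or 72 hours (n = 5) after a single intraperitoneal injection of carbon tetrachloride (CCl4), a hepatotoxin that kills hepatocytes around the central vein. Liver cells were digested with collagenase and purified on Percoll while spleens were dissociated mechanically, so organ, injury and isolation cannot be told apart in either comparison with the spleen. Both of these comparisons share the same 3 spleen libraries. The labels do not say whether a library came from 1 mouse or from a pool, so p-values measure the spread between these samples.

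MAP kinases (ERK, JNK and p38) are switched on by phosphorylation of a threonine and a tyrosine in their activation loop, and the MAP kinase phosphatases remove both phosphates. Several of these phosphatases are themselves products of genes that MAP kinase signalling induces within minutes to hours, so the family forms a negative feedback on the pathway. In neutrophils, p38 and ERK act in the responses to chemoattractants, cytokines and microbial products.

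The libraries held between 1267089 and 3017403 counts on genes. These were 2.71% to 3.18% of the uniquely aligned reads, the rest lying on no annotated gene or on more than 1, and the strand setting of the counter, used on a stranded kit, is not stated in the sources used here. Transcripts that are abundant in blood, liver or macrophages, among them Hba-a1, Hbb-bs, Ttr and C1qa, were at 0 in all libraries. Whether the counted reads came from the strand of each gene or from the strand opposite to it was not tested, so every level given here is a level of counts assigned to that gene and may not be the level of its messenger RNA. The genes annotated opposite each phosphatase are given beside it. Of the 5 libraries of the 72-hour group, replicates 2 and 3 stood apart, with 1.91% and 1.98% of reads unaligned against 49.6% to 50.7% in the other 10. All 10 listed markers of neutrophils passed the filter on low counts, although Camp had 0 counts in every 24-hour library. Their summed level was 7763 and 7667 CPM (counts per 1000000 counts on genes, with TMM factors, which scale libraries to each other) in spleen replicates 1 and 2, 1870 CPM in spleen replicate 3, 1117 to 2755 CPM at 24 hours and 2056 to 2704 CPM at 72 hours. Of the 10 markers, 4 were called lower than in the spleen at 24 hours and 6 were not called, by the limits given below. At 72 hours 6 were called lower and 4 were not called. Of all tested genes, 4.4% and 2.71% were called lower in these comparisons. The 4 named here by the fixed rule, which takes called genes only, were S100a8, S100a9, Lcn2 and Camp, and they fell in both liver groups.

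The 7 phosphatases other than Dusp10 passed the filter of more than 1 CPM in at least 3 libraries, as did 12488 genes in all. A gene was called when its Benjamini-Hochberg adjusted p in edgeR's quasi-likelihood test was below 0.05 over all of these genes and its log2 fold change was at least 0.5 in size. At 24 hours Dusp1, Dusp2, Dusp5 and Dusp16 rose against the spleen, 4 of 7, and none fell. Of all tested genes, 5.35% were called higher in that comparison, 4.4% lower and 9.75% in either direction. At 72 hours Dusp1, Dusp2 and Dusp5 rose, 3 of 7, against 2.63% of all tested genes called higher, 2.71% lower and 5.33% in either direction. Between 72 and 24 hours none of the 7 was called, against 4.49% of all tested genes, 1.65% called higher and 2.84% lower. Two-sided unadjusted p-values below 0.05 in edgeR's test were found there for 2 of the 7, as for 2616 of all 12488 tested genes. DESeq2 and limma-voom each called 0 of the 7, where they called 951 and 560 of all tested genes.

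**Figure D1:**
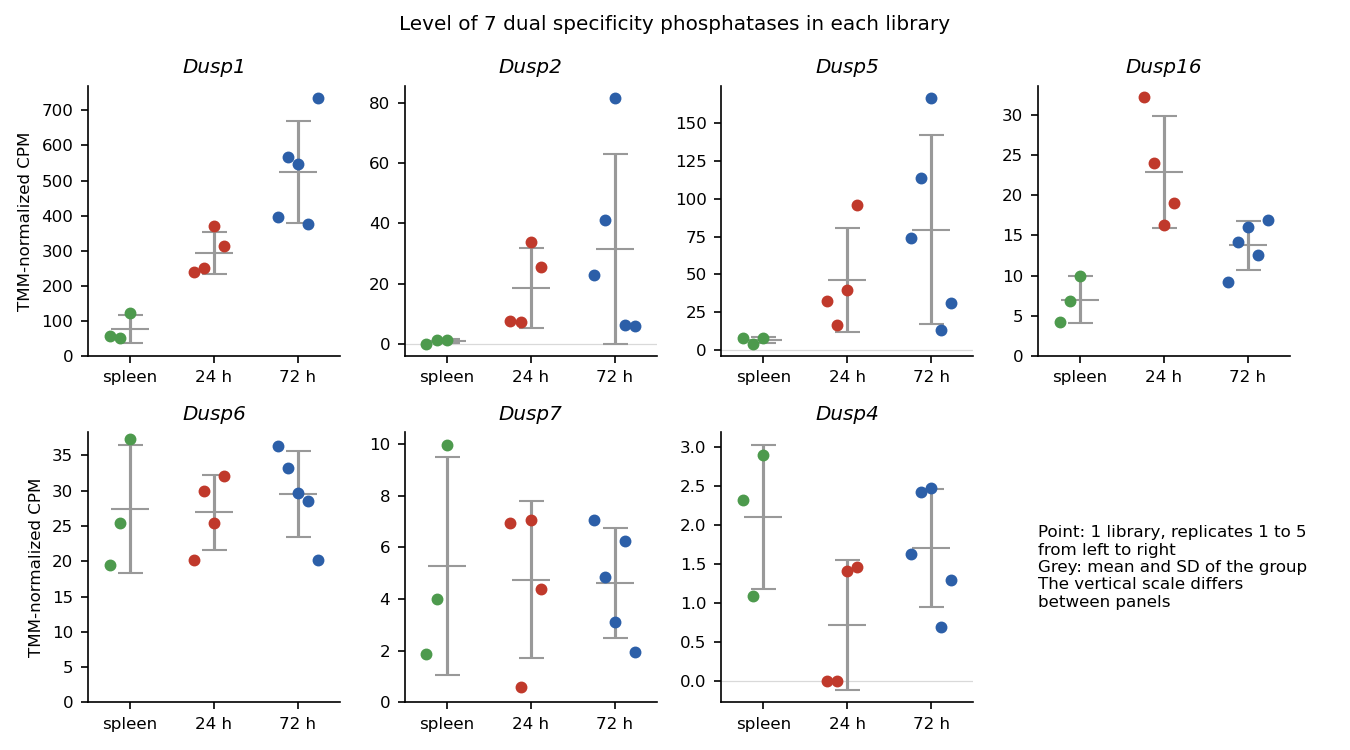
Level of 7 phosphatase genes in every library, in TMM-normalized CPM on linear axes whose range differs between panels; points are libraries, and grey lines the mean and SD of spleen control (n = 3), liver 24 h (n = 4) and liver 72 h (n = 5). Every liver library lies above every spleen library for Dusp1, Dusp2 and Dusp5, and the 72-hour libraries of Dusp2 and Dusp5 spread widely, from 5.84 to 81.7 and from 13.2 to 166 CPM.

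The nuclear, inducible members are given first. Dusp1 encodes MKP-1, a nuclear phosphatase of p38, JNK and ERK and an immediate early gene of stress and of microbial stimuli. It lies on chromosome 17 at 26505590-26562128 on the minus strand (GRCm38, GENCODE M21; identifier ENSMUSG00000024190.6 in the table). Its level was 56.1, 50.0 and 121 CPM in the 3 spleen libraries. At 24 hours it was 239, 251, 371 and 314 CPM in the 4 libraries. At 72 hours it was 396, 567, 548, 376 and 735 CPM in the 5 libraries. The 3 groups did not overlap: every spleen library was lower than every 24-hour library, which was lower than every 72-hour library, although the 72-hour minimum of 376 CPM was close to the 24-hour maximum of 371 CPM. The group means were 75.8 ± 39.5 (SD, n = 3), 294 ± 60.8 (SD, n = 4) and 524 ± 146 CPM (SD, n = 5). Against the spleen, Dusp1 rose 3.86-fold at 24 hours, a log2 difference of 1.95 ± 0.31 (SE), with an edgeR adjusted p of 0.000376. At 72 hours it rose 6.90-fold, a log2 difference of 2.79 ± 0.32 (SE), with an edgeR adjusted p of 9.16e-06. Spleen replicate 3, which had the lowest neutrophil marker level of the spleen libraries, also had their highest Dusp1 level, and without it the log2 differences were 2.47 and 3.30. With each library left out in turn they ran from 1.72 to 2.47 at 24 hours and from 2.56 to 3.30 at 72 hours. From 24 to 72 hours Dusp1 differed by 0.84 ± 0.26 (SE) on the log2 scale (95% interval 0.30 to 1.38), with an edgeR adjusted p of 0.0668. That adjusted p ranged from 0.00953 to 0.196 over the other settings. Dusp1 was the 1 of 7 phosphatases whose 72-hour libraries lay wholly higher than the 24-hour libraries, as was so for 4.49% of all tested genes, and under upper-quartile scaling they did overlap. On the opposite strand, Ergic1 shares 11 exon bases with the longer gene model of Dusp1 in GENCODE M21, and it was measured at means of 1.81, 4.36 and 7.13 CPM in spleen, 24-hour and 72-hour libraries. The pseudogene Gm8225 lies over an intron of that model and had at most 2 counts in any library.

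Promoters are shown for the 4 phosphatases that were called, to set beside their levels what their upstream sequences share and do not share. RefSeq promoters (GRCm38.p6) were matched for 7 of the 8 genes, all but Dusp4, and searched on both strands from 250 bases before to 50 bases after the start of the transcript. The motifs were the cyclic AMP response element (CRE) TGACGTCA, its 5-base core TGACG, the E box CACGTG, the AP-1 site TGANTCA, the Sp1 site GGGCGG and, by name, the CArG box bound by serum response factor and the NF-kB site. Of 32851 promoters, 1.79% held the CRE, 20.8% the core, 7.15% the E box, 7.81% the AP-1 site, 35.7% the Sp1 site, 1.63% the CArG box and 8.46% the NF-kB site. The 250 bases before each start are printed 5′ to 3′ on the gene's strand, with CRE, CRE core, E box and CArG box in capitals. The Dusp1 stretch, chr17:26508473-26508722 on the minus strand, held 1 CRE from position -143, an E box from position -126, a further core at position -191 and 3 Sp1 sites. The RefSeq start lies inside the longer GENCODE model. The CRE itself contains the core on both strands. Positions give the left end of a match as printed, counted from 0 at the first base of the transcript.
Dusp1: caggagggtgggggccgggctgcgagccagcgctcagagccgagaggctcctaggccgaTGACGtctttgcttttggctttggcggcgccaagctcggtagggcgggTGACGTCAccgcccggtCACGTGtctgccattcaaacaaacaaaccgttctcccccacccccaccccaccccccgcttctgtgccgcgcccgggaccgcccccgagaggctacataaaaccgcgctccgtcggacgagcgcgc

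Dusp2 encodes PAC-1, a nuclear phosphatase known from activated lymphoid and myeloid cells. It lies on chromosome 2 at 127336159-127338376 on the plus strand (ENSMUSG00000027368.6), with no gene annotated on the opposite strand. The spleen libraries held 0, 1.09 and 1.29 CPM, from 7 counts in all. At 24 hours the level was 7.57, 7.20, 33.9 and 25.5 CPM. The 72-hour libraries held 22.8, 41.1, 81.7, 6.25 and 5.84 CPM, and the last of these came from 9 counts. All 9 liver libraries were above all 3 spleen libraries. The 24-hour and 72-hour libraries overlapped, and replicates 4 and 5 of the 72-hour group were the lowest liver libraries. The means were 0.79 ± 0.69 (SD, n = 3), 18.6 ± 13.4 (SD, n = 4) and 31.5 ± 31.6 CPM (SD, n = 5). Dusp2 rose by a log2 difference of 4.33 ± 0.97 (SE; 95% interval 2.33 to 6.34) at 24 hours, with an edgeR adjusted p of 0.00606. At 72 hours it rose by 5.15 ± 0.94 on the log2 scale (SE; 95% interval 3.20 to 7.10), with an edgeR adjusted p of 0.00134. With so few spleen counts the size of both differences is uncertain, and the DESeq2 fit gave 4.52 at 24 hours. The 24-hour call was lost in limma-voom, with an adjusted p of 0.0675. Between 72 and 24 hours the log2 difference was 0.82 (95% interval -0.44 to 2.08; edgeR adjusted p = 0.466), and without the 72-hour replicates 2 and 3 it was -0.63. Without those replicates the 72-hour difference from the spleen was 3.70, still called with an edgeR adjusted p of 0.0150, and without replicate 3 alone it was 4.42. The Dusp2 promoter, chr2:127335909-127336158 on the plus strand, held an E box from position -109, and a CRE core after the start, at position 5, lies outside the printed stretch. It also held 3 Sp1 sites.
Dusp2: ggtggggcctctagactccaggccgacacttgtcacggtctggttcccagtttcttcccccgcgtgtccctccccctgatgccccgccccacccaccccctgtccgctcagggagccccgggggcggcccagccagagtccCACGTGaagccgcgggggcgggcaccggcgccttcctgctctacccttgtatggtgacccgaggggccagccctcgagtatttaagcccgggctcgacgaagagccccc

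Dusp5 encodes a nuclear phosphatase that is specific for ERK and is itself induced through ERK signalling. It lies on chromosome 19 at 53529109-53542431 on the plus strand (ENSMUSG00000034765.6). The spleen libraries held 7.89, 4.35 and 8.36 CPM. At 24 hours the level was 32.8, 16.8, 39.6 and 95.6 CPM. The 72-hour libraries held 74.3, 113, 166, 13.2 and 31.1 CPM. As for Dusp2, all liver libraries were above all spleen libraries, the liver groups overlapped, and replicates 4 and 5 were the lowest of the 72-hour group. The means were 6.87 ± 2.19 (SD, n = 3), 46.2 ± 34.3 (SD, n = 4) and 79.6 ± 62.1 CPM (SD, n = 5). Dusp5 rose 6.65-fold at 24 hours, a log2 difference of 2.73 ± 0.67 (SE), with an edgeR adjusted p of 0.0111. The 72-hour rise was 11.7-fold, a log2 difference of 3.54 ± 0.67 (SE), with an edgeR adjusted p of 0.00173. The 24-hour call was lost in limma-voom (adjusted p = 0.0853), without spleen replicate 2 (edgeR adjusted p = 0.0663) and without 24-hour replicate 4 (log2 difference 2.10, edgeR adjusted p = 0.0548). Without the 72-hour replicates 2 and 3, the 72-hour difference was 2.53 and still called, with an edgeR adjusted p of 0.0205. The difference between 72 and 24 hours was 0.81 on the log2 scale (95% interval -0.25 to 1.87; edgeR adjusted p = 0.382), and -0.20 without those replicates. An antisense gene, AC137853.2, shares 547 of the 2473 exon bases of Dusp5. It has no values of its own in the table used here, so reads from it and from Dusp5 were not separated. The Dusp5 promoter, chr19:53528895-53529144 on the plus strand, held a pair of CArG boxes from positions -82 and -72 and a CRE core on the other strand at position -55, with 1 Sp1 site.
Dusp5: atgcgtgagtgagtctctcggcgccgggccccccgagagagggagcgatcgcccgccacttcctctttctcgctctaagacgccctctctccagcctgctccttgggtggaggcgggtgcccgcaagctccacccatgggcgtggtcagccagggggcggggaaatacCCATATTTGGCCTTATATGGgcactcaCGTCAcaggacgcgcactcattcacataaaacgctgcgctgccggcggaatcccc

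Dusp4 encodes MKP-2, a nuclear relative of MKP-1, and lies on chromosome 8 at 34807297-34819894 on the plus strand (ENSMUSG00000031530.6). It was near the limit of detection. The spleen libraries held 2.32, 1.09 and 2.89 CPM, and the 72-hour libraries 1.63, 2.42, 2.48, 0.69 and 1.30 CPM. The 24-hour libraries held 0, 0, 1.41 and 1.46 CPM, from 4 counts in all. A count of 0 allows up to 3 counts, here 0.93 to 2.19 CPM depending on the library, so all 24-hour values lay at or under this floor and no fold is given against them. This floor covers counting error only. Of the 5 libraries at 72 hours, replicates 1, 4 and 5 were at or under their floors too. Against the spleen, the 72-hour group differed by -0.24 ± 0.85 (SE) on the log2 scale, with an edgeR adjusted p of 0.943.

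Dusp6 and Dusp7 encode the cytoplasmic phosphatases MKP-3 and MKP-X, which act on ERK. Dusp6, often read as a sign of ERK output, lies on chromosome 10 at 99263231-99267489 on the plus strand (ENSMUSG00000019960.7). Its level was 19.5, 25.4 and 37.3 CPM in the spleen. At 24 hours it was 20.2, 30.0, 25.5 and 32.1 CPM. In the 72-hour libraries its level was 36.3, 33.2, 29.7, 28.5 and 20.1 CPM. The 3 groups overlapped throughout, with means of 27.4 ± 9.08 (SD, n = 3), 26.9 ± 5.28 (SD, n = 4) and 29.6 ± 6.11 CPM (SD, n = 5). The log2 difference from the spleen was -0.03 (95% interval -0.69 to 0.63; edgeR adjusted p = 0.967) at 24 hours and 0.11 (95% interval -0.51 to 0.73; edgeR adjusted p = 0.923) at 72 hours. These intervals leave out the log2 differences fitted for Dusp1, Dusp2 and Dusp5 in the same comparisons. Dusp7, on chromosome 9 at 106368632-106375724 on the plus strand (ENSMUSG00000053716.9), held 1.86, 3.99 and 9.97 CPM in the spleen. It held 6.94, 0.60, 7.07 and 4.38 CPM at 24 hours, and 7.05, 4.84, 3.10, 6.25 and 1.95 CPM at 72 hours. The groups overlapped, and with 1 to 31 counts per library the 95% intervals of the log2 differences were wide, -1.60 to 1.22 at 24 hours and -1.53 to 1.09 at 72 hours. No gene is annotated opposite Dusp6 or Dusp7, and their promoters held no CRE, CRE core, E box, CArG box, AP-1 or NF-kB site in the window searched.

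Dusp10 and Dusp16 encode MKP-5 and MKP-7, which act on JNK and p38. Dusp10, on chromosome 1 at 184013302-184075636 on the plus strand (ENSMUSG00000039384.8), had 0 counts in all 12 libraries, of 24555916 counts on genes. By counting error alone, a 0 in a single library allows up to 0.93 to 2.19 CPM of such counts. Because the strand counted is not known and abundant transcripts were also at 0, this sets no limit on the level of Dusp10 messenger RNA. The gene 1700056E22Rik, annotated over its body on the opposite strand, was also at 0 throughout. Dusp16 lies on chromosome 6 at 134715468-134792625 on the minus strand (ENSMUSG00000030203.17). Its level was 4.18, 6.89 and 9.97 CPM in the spleen. At 24 hours it was 32.2, 24.0, 16.3 and 19.0 CPM. The 72-hour level was 9.22, 14.2, 16.1, 12.5 and 16.9 CPM. All 24-hour libraries were above all spleen libraries, while the 72-hour libraries overlapped with both other groups and lay between them by their mean. The means were 7.01 ± 2.90 (SD, n = 3), 22.8 ± 6.99 (SD, n = 4) and 13.8 ± 3.06 CPM (SD, n = 5). Dusp16 rose 3.20-fold at 24 hours, a log2 difference of 1.68 ± 0.40 (SE), with an edgeR adjusted p of 0.00995. That call was lost without spleen replicate 1 (edgeR adjusted p = 0.0706) and without spleen replicate 2 (edgeR adjusted p = 0.0509). At 72 hours the log2 difference was 0.95 ± 0.39 (SE), with an edgeR adjusted p of 0.187. From 24 to 72 hours it was -0.73 (95% interval -1.42 to -0.03), with an unadjusted p of 0.0413 and an edgeR adjusted p of 0.216. Within an intron of Dusp16, on the opposite strand, the antisense gene Gm36328 moved with it at 24 hours, with means of 1.31, 8.95 and 4.30 CPM and a called log2 difference of 2.62 ± 0.75 (SE; edgeR adjusted p = 0.0292) from the spleen. Gm36328 had 0, 2 and 10 counts in the spleen libraries, so the size of this difference is uncertain. It shares 0 exon bases with Dusp16, and its part in the Dusp16 counts was not tested. The Dusp16 promoter, chr6:134792629-134792878 on the minus strand, held a CRE core at position -70 and 5 Sp1 sites, and none of the CRE, E box and CArG box.
Dusp16: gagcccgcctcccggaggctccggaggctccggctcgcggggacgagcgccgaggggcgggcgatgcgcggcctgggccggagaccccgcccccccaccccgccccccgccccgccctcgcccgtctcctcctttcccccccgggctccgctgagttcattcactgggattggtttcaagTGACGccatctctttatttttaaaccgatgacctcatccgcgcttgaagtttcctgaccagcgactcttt

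The promoters of the 4 called genes each held the CRE core and at least 1 Sp1 site. The E box was shared by Dusp1 and Dusp2, and among the 7 promoters matched the full CRE was found in Dusp1 alone and the CArG box in Dusp5 alone. Sp1 sites were also found in Dusp7, with 1, and Dusp10, with 3, but not in Dusp6. No AP-1 or NF-kB site was found in any of the 7. These are matches of letters, and binding was not measured.

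**Figure D2:**
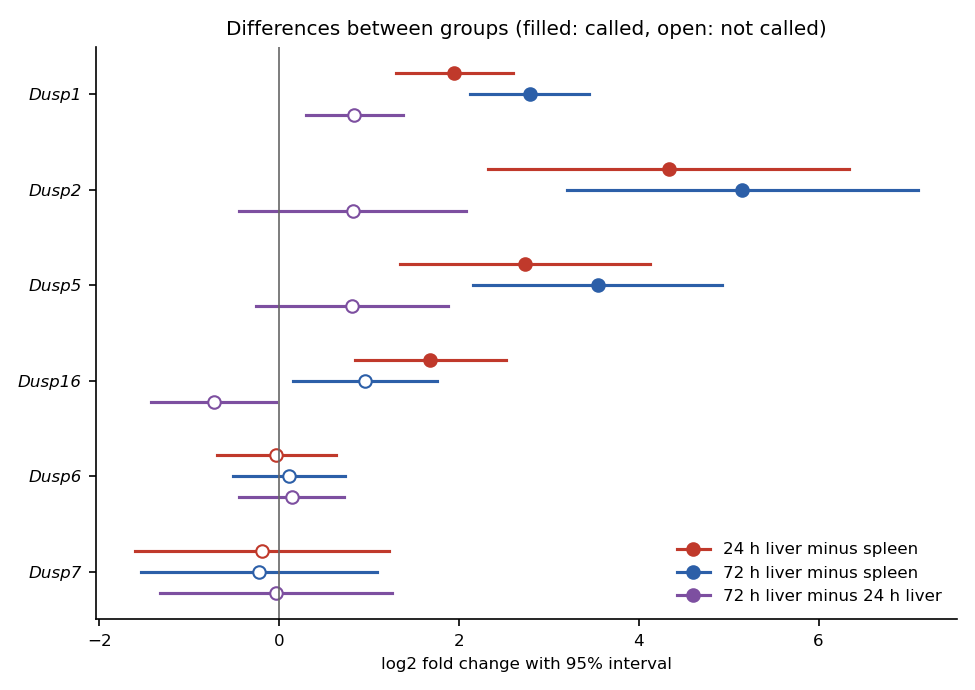
Log2 fold changes with 95% intervals from edgeR's quasi-likelihood fit of all 12 libraries, for 3 comparisons; filled points were called, and Dusp4 is left out because many of its libraries lie at or under the detection floor. The intervals of Dusp1, Dusp2 and Dusp5 against the spleen lie wholly above 1, and those of Dusp6 include 0 in all 3 comparisons.

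Of the 7 phosphatases, 4 lay higher in every 24-hour library than in every spleen library, against 9.76% of all tested genes. For the 72-hour libraries this held for 3 of 7, against 5.59% of all tested genes. The TMM factors were 1.17 to 1.24 in the spleen, 0.74 to 0.86 at 24 hours and 1.03 to 1.14 at 72 hours. Scaled by library totals alone, the same 4 lay higher at 24 hours and Dusp4 lay wholly lower. Of 12488 tested genes 458 then lay higher and 3821 lower. Between 72 and 24 hours Dusp1 still lay wholly higher, as did 1546 tested genes, against 561 with TMM factors. The median of all tested genes was shifted by -0.23 on the log2 scale at 24 hours, by -0.02 at 72 hours and by 0.18 between 72 and 24 hours. Read against these medians, each log2 difference at 24 hours would move up by 0.23, whatever its sign. Those between 72 and 24 hours would each move down by 0.18, so that rises there would be smaller and falls larger.

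Levels of different phosphatases were compared per kilobase of exon. In the spleen, Dusp1 was highest with a mean of 22.9 CPM per kilobase, followed by Dusp6 with 8.74, Dusp5 with 2.78, Dusp7 with 1.57, Dusp16 with 0.90, Dusp4 with 0.77 and Dusp2 with 0.40. In the 72-hour liver, the order was Dusp1 with a mean of 158 CPM per kilobase, Dusp5 with 32.2, Dusp2 with 15.7, Dusp6 with 9.44, Dusp16 with 1.77, Dusp7 with 1.38 and Dusp4 with 0.62. The order of Dusp2 and Dusp6 at 72 hours rested on replicates 2 and 3: without them the means were 5.8 CPM per kilobase for Dusp2 and 9.04 for Dusp6, and Dusp6 was the higher in replicates 1, 4 and 5. The mean of Dusp6 stayed between 8.60 and 9.44 CPM per kilobase in the 3 groups. At 24 hours Dusp1 stood at 88.7 CPM per kilobase, Dusp5 at 18.7, Dusp2 at 9.27 and Dusp6 at 8.60, and the libraries of the last 2 genes overlap on this scale. Dusp1 made up the greater part of the summed level in every library, 54.0% to 63.3% in the spleen, 59.0% to 76.6% at 24 hours and 57.7% to 89.8% at 72 hours. The summed level was 28.0 to 57.8 CPM per kilobase in the spleen, 99.1 to 161 at 24 hours and 135 to 287 at 72 hours. The range of the 2 liver groups overlapped, and both lay above that of the spleen.

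**Figure D3:**
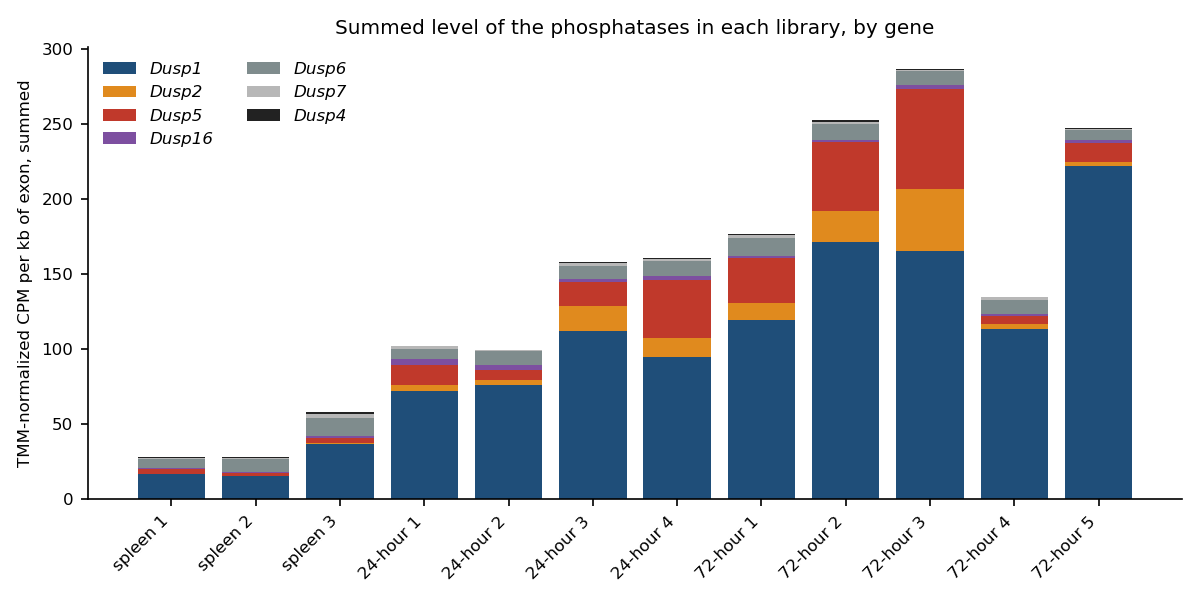
Summed level of the phosphatases in each library, in TMM-normalized CPM per kilobase of exon, split by gene; Dusp10 is at 0. Dusp1 is the largest share in all 12 libraries, and at 72 hours the share of Dusp2 and Dusp5 is large in replicates 1 to 3 and small in replicates 4 and 5.

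Within the 72-hour group Dusp1 did not follow Dusp2 and Dusp5. Dusp2 and Dusp5 were high in replicates 1, 2 and 3 and low in replicates 4 and 5, whereas Dusp1 was highest in replicate 5. Over all 12 libraries, the profiles of Dusp2 and Dusp5 differed by a root mean square of 0.73 in centred log2 CPM, the smallest of the 6 pairs of called phosphatases, which ran up to 1.61 for Dusp2 and Dusp16. Pairs of phosphatases that were not called differed by as little, 0.61 for Dusp4 and Dusp6 and 0.72 for Dusp6 and Dusp7. Replicates 2 and 3, with few unaligned reads, were the libraries with the highest Dusp2 and Dusp5 of the group, and replicate 1, with the usual share, lay between them and replicates 4 and 5. The part of this in the levels was not tested beyond leaving both libraries out.

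The genes whose profiles were most like those of the called phosphatases were taken as the 3 with the smallest root mean square difference over the 12 libraries, among all tested genes. For Dusp1 they were Fos at 0.31, Btg2 at 0.43 and the unnamed D930030I03Rik at 0.43, where Dusp1 itself varied by 1.20 around its mean. Fos, an AP-1 subunit, had means of 87.6, 285 and 625 CPM in spleen, 24-hour and 72-hour libraries, and Btg2, an antiproliferative early gene, 39.2, 113 and 236 CPM. For Dusp2 they were Ccrl2, an atypical chemokine receptor, at 0.51, the orphan nuclear receptor Nr4a1 at 0.56 and the lysosomal sulfatase Sgsh at 0.61. Ccrl2 had means of 2.36, 44.6 and 93.8 CPM and Nr4a1 7.34, 67.3 and 185 CPM. For Dusp5 they were G0s2, an inhibitor of triglyceride lipase, at 0.55, Ppp1r15a, a stress-induced phosphatase subunit, at 0.57 and the transcription factor Egr1 at 0.59. For Dusp16 they were 3 genes of no assigned function, Gm15354 at 0.24, Gm26778 at 0.26 and 9330162G02Rik at 0.26. These had their highest mean at 24 hours, as Dusp16 did, with 34.2, 94.8 and 59.0 CPM for Gm15354 in the 3 groups. Gm26778 was far more abundant, with means of 10747, 28729 and 21215 CPM. The libraries share group, depth and isolation, so the likeness is a description.

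**Figure D4:**
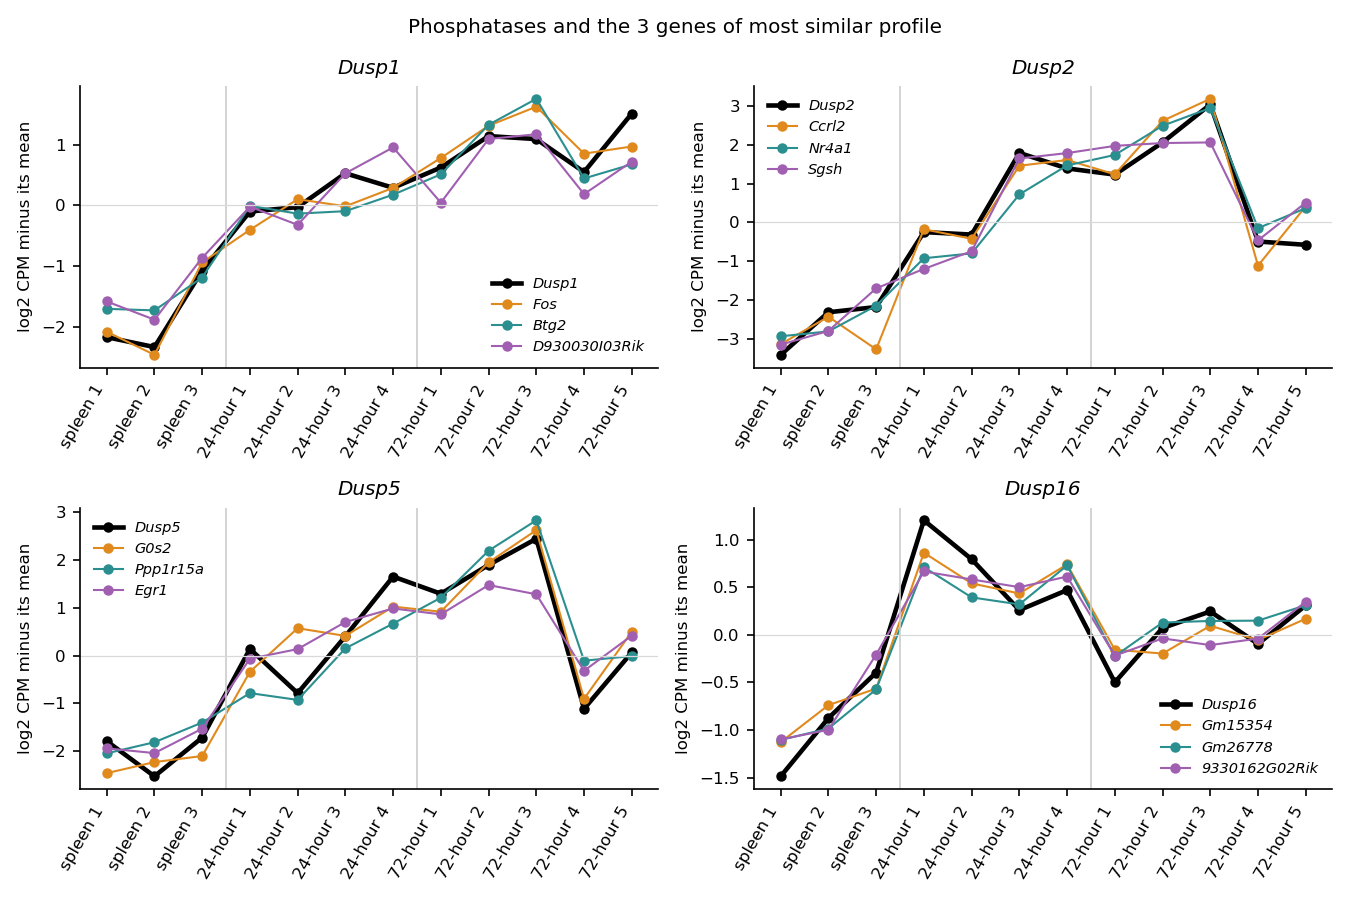
Centred log2 TMM-normalized CPM over the 12 libraries for the 4 called phosphatases (black) and, in colour, the 3 genes of most similar profile for each; vertical lines part spleen, 24-hour and 72-hour libraries. Fos follows Dusp1 with a root mean square difference of 0.31, and the genes beside Dusp2 and Dusp5 fall in the 72-hour replicates 4 and 5.

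The rest of the pathway was read from lists of its genes. Of the 18 other dual specificity phosphatases, 6 passed the filter, and none was called in the 3 comparisons. Of all tested genes 9.75% at 24 hours, 5.33% at 72 hours and 4.49% between the liver groups were called. For so few genes, none called is near these shares. Among them Dusp13 had means of 0.75, 4.19 and 3.36 CPM in the 3 groups, with edgeR adjusted p-values of 0.0951 at 24 hours and 0.230 at 72 hours. Dusp8, which acts on JNK and p38, was counted only in the spleen, 13 counts in all, with 10, 3 and 0 in replicates 1, 2 and 3. Dusp9 had 0 counts. None of the 8 tested MAP kinases themselves was called in any comparison, which is also near these shares. Their median log2 difference was -0.53 at 24 hours and -0.37 at 72 hours.

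Of 20 tested kinases and adaptors upstream of the MAP kinases, 1 fell at 24 hours: Map3k3, a kinase of the ERK5 branch, with means of 112 CPM against 243 CPM in the spleen and an edgeR adjusted p of 0.0405. Of all tested genes 4.4% were called lower and 5.35% higher in that comparison, near the share of this list. The highest spleen library held 1374 Map3k3 counts, and no 24-hour library more than 182. The listed upstream genes summed to 1093 CPM in spleen replicate 3 and to 606 and 650 CPM in replicates 1 and 2. How far the fall of Map3k3 rests on 1 spleen library was not tested. Of 9 tested kinases activated by MAP kinases, 1 rose and 1 fell at 24 hours, where 9.75% of all tested genes were called in either direction. Mapkapk2, the p38 target that stabilises cytokine transcripts, rose by 1.86 ± 0.38 on the log2 scale (SE), from 29.7 to 108 CPM, with an edgeR adjusted p of 0.00296. Rps6ka1, an ERK target, fell from 23.0 to 7.52 CPM, with an edgeR adjusted p of 0.0307. At 72 hours none of these 29 kinases and adaptors was called, where 5.33% of all tested genes were called in either direction. For 29 genes this is near that share. Mapkapk2 stood at 64.2 CPM at 72 hours, with an edgeR adjusted p of 0.0749. None of the 8 tested genes that inhibit the pathway by other means was called, which for so few genes is near the share of all tested genes.

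Early response genes, which MAP kinases induce in many cells, were the list with the most calls. Of 21 tested, 14 rose and none fell at 24 hours, where 5.35% of all tested genes were called higher. Their median log2 difference was 1.45, against -0.23 over all tested genes. At 72 hours 14 rose and none fell, where 2.63% of all tested genes were called higher, with a median of 1.98 against -0.02. From 24 to 72 hours 4 rose, where 1.65% of all tested genes were called higher, with a median of 0.09 against 0.18. Fos rose by 1.70 ± 0.32 at 24 hours and 2.83 ± 0.33 at 72 hours on the log2 scale (SE; edgeR adjusted p = 0.00150 and 9.24e-06). Unlike Dusp1, Fos was called between 72 and 24 hours, with a log2 difference of 1.13 ± 0.27 (SE; edgeR adjusted p = 0.0195), although the difference between the genes was not tested. Junb rose by 1.40 and 1.98, Egr1 by 2.37 and 2.76 and Btg2 by 1.53 and 2.59 on the log2 scale. The summed level of the 24 listed early response genes was 1113 to 1474 CPM in the spleen, 2648 to 3377 CPM at 24 hours and 3201 to 4835 CPM at 72 hours, and spleen replicate 3 was the highest of the spleen libraries, as it was for Dusp1. Warm enzymatic digestion was applied to liver cells alone, and its part in these levels cannot be told apart from that of organ and injury. Of 6 tested heat shock genes, none was called, where 9.75% of all tested genes were called at 24 hours and 5.33% at 72 hours. For 6 genes this is near those shares. Their medians were 0.35 at 24 hours and 1.09 at 72 hours, with summed levels of 22.8 to 30.4, 29.7 to 53.3 and 29.9 to 90.4 CPM in the 3 groups.

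**Figure D5:**
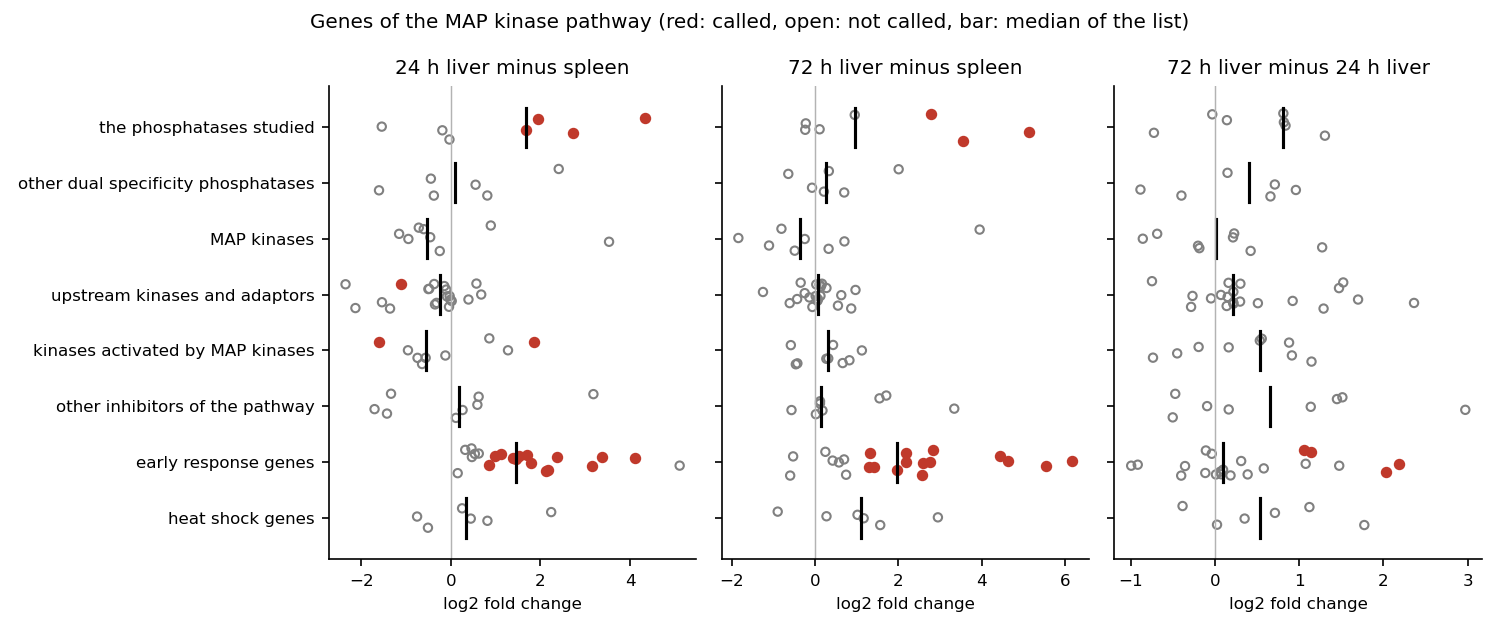
Log2 fold changes of the tested genes of each pathway list in the 3 comparisons, 1 point per gene, with called genes in red and the median of each list as a bar. Early response genes and the phosphatases studied are the lists with more than 1 called gene that rose against the spleen, and no MAP kinase was called.

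Markers of other cells were measured beside these. Hepatocyte markers summed to 2.32 to 6.11 CPM in the spleen, 14.9 to 19.8 CPM at 24 hours and 3.24 to 23.2 CPM at 72 hours, with Ttr at 0 in all libraries and Apoa2 called higher at 24 hours. In replicates 1 to 5 of the 72-hour group the hepatocyte sums were 7.05, 17.3, 23.2, 6.95 and 3.24 CPM. They had the same order as the Dusp2 levels of these libraries and, but for replicates 4 and 5, as the Dusp5 levels, whereas replicate 5, lowest in hepatocyte markers, was the highest in Dusp1. At 24 hours the sums were 19.6, 19.8, 14.9 and 19.0 CPM, and replicate 3, the lowest, was the highest in Dusp2. Apoa2 alone had means of 16.9 CPM at 24 hours and 6.34 CPM at 72 hours, so the 24-hour sums were mostly Apoa2. From 24 to 72 hours the fitted difference was negative for Apoa2 and positive for Alb and Fgb, the other tested hepatocyte markers, with none called. The 24-hour and 72-hour sums thus differ in make-up, and the phosphatases were not set against single hepatocyte markers. Of 9 macrophage and monocyte markers, C1qa and the Kupffer cell gene Clec4f were at 0 in all libraries, and the sums overlapped across groups, 130 to 156, 143 to 189 and 125 to 191 CPM. Of the 4 that were tested, only Ly6c2 was called, and it fell by 2.60 at 24 hours and 3.01 at 72 hours on the log2 scale (edgeR adjusted p = 0.00472 and 0.000844). Of all tested genes, 4.4% and 2.71% were called lower in these comparisons. The neutrophils themselves were sorted as Ly6C intermediate, so the Ly6c2 counts need not come from monocytes. Eosinophil markers summed to 7.89 to 10.6, 6.36 to 16.8 and 13.8 to 31.3 CPM, Siglecf being called higher at 72 hours and Prg2 being at 0. B cell markers summed to 44.2 to 54.0, 25.5 to 61.2 and 24.0 to 45.2 CPM, while T cell, erythroid and endothelial markers stayed under 11.7 CPM in sum in every library. The part of other cells in the phosphatase levels was not tested, and fewer cells of a type and less RNA per cell cannot be told apart in these bulk samples.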

How the data were processed

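RNA-seq was analysed for 12 libraries of neutrophils sorted as Ly6G high, Ly6C intermediate, CD11b+ CD45+ cells. The deposited values are read counts per gene, which the authors made with STAR 2.7.9a (the submitters' processing notes) on GRCm38 and HTSeq-count; the strand option is not given in the sources used here. The 5 summary lines of the table were left out of library sizes. Of 48709 gene identifiers, 48349 matched GENCODE M21. Counts were scaled by TMM, filtered at more than 1 CPM in at least 3 libraries and fitted in 1 model of 3 groups with edgeR 4.0.16 in R 4.3.3 (quasi-likelihood test, Benjamini-Hochberg adjustment over 12488 genes). A call needed an adjusted p below 0.05 and a log2 difference of at least 0.5. The study used limma-voom, which was run as an alternative (limma 3.58.1), as were DESeq2 1.42.0, other scalings, filters and limits, fits of 2 groups, a replicate block, genes free of opposite-strand exons and leaving out each library.

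The phosphatases, pathway lists and markers were chosen with earlier results of these data known. Genes named were all 8 phosphatases, genes opposite them, the 3 most similar profiles of each called phosphatase (centred log2 CPM, prior count 2), and up to 4 called genes per list by adjusted p. Dusp8, Dusp9 and Dusp13 and the markers at 0 were named after their values were seen. The edgeR script was tested on simulated data.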

Additional observations from a re-analysis of the deposited data

How the results depend on the processing

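Of 453 log2 differences of the phosphatases under other settings, 423 kept their direction and side of the threshold and 20 changed sign, none of them called. At 24 hours the number of phosphatases called was 2 with limma-voom and 2 with genes free of opposite-strand exons, which takes Dusp1 and Dusp5 out of the test; leaving out single libraries gave 2 to 4. At 72 hours it was 1 with genes free of opposite-strand exons and 3 to 3 without single libraries. Between 72 and 24 hours it was 1 with no filter (Dusp1, edgeR adjusted p = 0.00953), 1 in a fit of 2 groups (Dusp1, edgeR adjusted p = 0.0311) and 0 to 1 without single libraries (Dusp1, edgeR adjusted p = 0.0202 without spleen replicate 3 and 0.0440 without 72-hour replicate 4). Under upper-quartile scaling 0 phosphatases had 72-hour and 24-hour libraries that did not overlap. The cause was not tested.

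The signs that changed were those of Dusp6 at 24 hours (0.054 with upper-quartile scaling, 0.10 with genes free of opposite-strand exons, -0.22 to 0.26 without single libraries), Dusp7 at 24 hours (-0.57 to 0.65), Dusp4, Dusp6 and Dusp7 at 72 hours (-0.55 to 0.071, -0.082 to 0.40 and -0.60 to 0.62), and Dusp7 between 72 and 24 hours (-0.42 to 0.22 without single libraries, 0.22 with limma-voom). Without the 72-hour replicates 2 and 3, chosen after seeing the data, the differences between 72 and 24 hours were -0.63 for Dusp2, -0.20 for Dusp5 and 0.12 for Dusp7, and Dusp6 was at -0.032 with genes free of opposite-strand exons. Numbers of calls over all genes were 552, 360 and 143 with genes free of opposite-strand exons, 287 at 72 hours and 197 between the liver groups without replicates 2 and 3, 951 between the liver groups with DESeq2, and 575 to 1320, 314 to 835 and 182 to 796 without single libraries. The first fell to 575 and 611 and the second to 322 and 314 without spleen replicates 1 and 2; the third fell to 182 and 252 without 24-hour replicates 1 and 2 and to 309, 371 and 244 without 72-hour replicates 1, 2 and 3.

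Deviations from the group means had correlations of -0.12 to 0.13 between libraries with the same number. Libraries with different numbers were not compared in this way, so whether the numbers pair libraries was not settled. The fit with a replicate block called 4, 3 and 0 phosphatases and 1302, 874 and 599 genes, with Dusp7 at 0.057 at 72 hours and 0.31 between the liver groups. Depth limits Dusp4, Dusp7, Dusp10 and the spleen level of Dusp2.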
